A study of Caenorhabditis elegans with 2 samples.

Results

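The genes described here encode the protein parts of the mitochondrial ribosome of Caenorhabditis elegans. They were taken by symbol, as every protein-coding gene named mrpl- (large subunit) or mrps- (small subunit) plus a number in the RefSeq annotation of WBcel235, the same assembly as ce11. This rule found 71 genes, 42 mrpl and 29 mrps, among 19983 protein-coding genes. The data are a chromatin immunoprecipitation followed by sequencing (ChIP-seq) of C38D4.7, which RefSeq describes as a C2H2-type domain-containing protein, in whole embryos. Both samples belong to 1 group and are biological replicates 1 and 2 per the labels. The worms were strain OP708, which carries the unc-119 allele tm4063 and the transgene wgIs708. That transgene supplied C38D4.7 fused to TY1, EGFP and 3xFLAG, together with a working copy of unc-119, and an antibody against GFP was used for the precipitation. The animals were late embryos of 4 hours, of both sexes pooled, synchronised by bleaching of eggs. Both samples therefore report a tagged protein from 1 transgenic line, in whole embryos whose cell types were not separated. The lists do not show which cells made the tagged protein. With no second condition there was no comparison between groups of samples.

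Mitochondrial ribosomes translate the few proteins that are encoded in mitochondrial DNA, chiefly subunits of the respiratory chain and the ATP synthase. All of the ribosome's own proteins are encoded in the nucleus, made in the cytosol and imported. Many C. elegans genes lie in operons, where a promoter ahead of the first gene serves the genes downstream. In this nomenclature uL or uS marks proteins shared by ribosomes of all domains of life, bL or bS those shared with bacteria, and mL or mS those particular to mitochondria.

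A promoter window began 1000 bp before the annotated start of a gene and ended 200 bp after it, and a listed region counted when its summit lay in the window. The deposited lists hold the optimal regions, which passed the authors' irreproducible discovery rate (IDR) step, and the candidate regions called on both replicates pooled and on each replicate. The pooled candidate list is labelled as peaks and background, the input for the IDR step, so presence in it alone does not show binding. A rank always refers to the order of the authors' scores within 1 list, rank 1 being the highest. The sequences from 50 bp before to 50 bp after the pooled summit (base 51) are shown for 6 of the 9 members with a pooled promoter summit of rank up to 2000, to let the DNA under these summits be compared. No sequence is shown for mrpl-23, mrpl-15 or mrps-35. They were read from the RefSeq genome, WBcel235 (ce11), 5′ to 3′ on the strand of the gene. The mrpl-39 window was chrV:1821409-1821509 (+), the mrpl-18 window chrIII:8144793-8144893 (+) and the mrps-28 window chrV:19643196-19643296 (+). The mrps-23 window was chrIII:9523729-9523829 (−), the mrps-34 window chrIII:4542464-4542564 (−) and the mrps-10 window chrIII:12926304-12926404 (+). Capitals mark matches, on either strand, to the motif CCGCAC, to the motif CGCACA or to the motif CCGCCC, whose reverse complement is GGGCGG.
mrpl-39: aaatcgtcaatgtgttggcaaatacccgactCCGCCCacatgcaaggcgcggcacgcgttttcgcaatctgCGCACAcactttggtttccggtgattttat
mrpl-18: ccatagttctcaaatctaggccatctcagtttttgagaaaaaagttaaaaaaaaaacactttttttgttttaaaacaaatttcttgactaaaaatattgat
mrps-28: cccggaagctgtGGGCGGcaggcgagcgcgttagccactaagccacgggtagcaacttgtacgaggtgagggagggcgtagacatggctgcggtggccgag
mrps-23: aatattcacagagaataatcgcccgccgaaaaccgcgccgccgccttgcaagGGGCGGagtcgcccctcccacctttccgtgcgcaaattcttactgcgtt
mrps-34: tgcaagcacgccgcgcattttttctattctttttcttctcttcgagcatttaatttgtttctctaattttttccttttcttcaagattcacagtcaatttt
mrps-10: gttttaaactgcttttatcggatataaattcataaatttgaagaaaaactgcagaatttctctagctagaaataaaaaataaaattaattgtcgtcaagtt
The mrps-28 and mrps-23 windows each held 1 match to CCGCCC, and the mrpl-39 window held 1 match to CCGCCC and 1 to CGCACA. The windows of mrpl-18, mrps-34 and mrps-10 held none of these motifs. G and C made up 66.3% of the mrps-28 window, 58.4% of the mrps-23 window and 51.5% of the mrpl-39 window, against 32.7% for mrps-34 and 23.8% for both mrpl-18 and mrps-10. In the same windows at the members not shown it was 56.4% for mrpl-23, 48.5% for mrpl-15 and 52.5% for mrps-35. The members outside the optimal list were added to the printed set after their values had been seen.

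An optimal summit lay in the promoter of 4 of the 71 members (5.63%, exact Clopper-Pearson 95% interval 1.56% to 13.8%), against 1.93% of all protein-coding genes. They were the large subunit genes mrpl-23, mrpl-39 and mrpl-15 and the small subunit gene mrps-28. The interval covers counting error over genes only. Since the members were chosen with earlier results of these data known, it is a description and not a test. Summits of mrps-28 and mrpl-23 lay within 200 bp of a snoRNA gene. With summits near tRNA, snoRNA or snRNA genes left out, 2 members held an optimal summit (2.82%, 0.343% to 9.81%), against 1.57% of all protein-coding genes. In a window from 500 bp before to 100 bp after the start, mrpl-39 was the 1 member left (1.41%), against 1.36% of all protein-coding genes. The optimal list of 649 lines is the top of the pooled list, so ranks in both are the same.

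Among the large subunit genes, mrpl-23 encodes uL23m, whose bacterial counterpart lies at the exit of the peptide tunnel. Its optimal region had rank 171 (score 416) and overlapped a candidate of rank 177 in replicate 1 (score 273) and 168 in replicate 2 (score 147). The region spanned chrI:6212793-6212944 (ce11), and its summit lay 963 bp upstream of the start of mrpl-23, a gene on the minus strand at chrI:6211270-6211885. This summit was inside an intron of fars-1, the phenylalanine--tRNA ligase gene that ends 98 bp ahead of mrpl-23 on the same strand. It was also inside the tRNA pseudogene T08B2.t1 and the noncoding RNA gene T08B2.14, and 24 bp upstream of the snoRNA gene T08B2.13. The promoter of fars-1 itself held no pooled candidate.

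The summit nearest to its gene's start among the optimal ones belonged to mrpl-39, a large subunit gene at chrV:1821579-1823096 on the plus strand. The region had rank 266 (score 306), with rank 268 in replicate 1 (score 205) and rank 305 in replicate 2 (score 98.4). Its summit lay 120 bp upstream of mrpl-39 in the pooled list and in replicate 1, and 123 bp upstream in replicate 2. The position was thus within a few bases in both replicates. The summit lay between genes, in a promoter shared with gly-7, a polypeptide N-acetylgalactosaminyltransferase gene on the opposite strand. The start of gly-7 is 256 bp from that of mrpl-39, and the region (chrV:1821224-1821693) reached into both genes. The same summit lay 136 bp upstream of gly-7, so the lists do not assign it to 1 of the genes. No tRNA, snoRNA or snRNA gene was within 200 bp.

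The lowest ranked of the optimal regions was that of mrpl-15, which encodes uL15m and lies at chrI:1436279-1441334 on the plus strand. It had rank 347 (score 261), with rank 304 in replicate 1 (score 189) and rank 503 in replicate 2 (score 75.1). The summit lay 624 bp upstream in the pooled list, 692 bp in replicate 1 and 615 bp in replicate 2. Replicate 1 listed an additional overlapping region of rank 24623, 491 bp upstream. The summit fell between genes, no other protein-coding promoter held it, and no small noncoding RNA gene of the 3 kinds was near.

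The highest ranked optimal region of the set was at the small subunit gene mrps-28 (chrV:19644239-19645676, plus strand). It had rank 23 (score 1090), with overlapping candidates of rank 21 in replicate 1 (score 720) and rank 30 in replicate 2 (score 377). All 3 lists therefore placed this region among their highest. The region covered chrV:19643016-19643437, and its summit lay 993 bp upstream of mrps-28, at the far edge of the promoter window. In replicate 2 the summit was 987 bp upstream, and in replicate 1 it was 1008 bp upstream, just outside the window. The summit was within an intron of Y43F8C.7, the divergent neighbour that starts 209 bp from mrps-28, and lay 784 bp inside that gene. It was 59 bp upstream of the snoRNA gene Y43F8C.22. The part of the snoRNA genes in these signals was not tested.

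**Figure D1:**
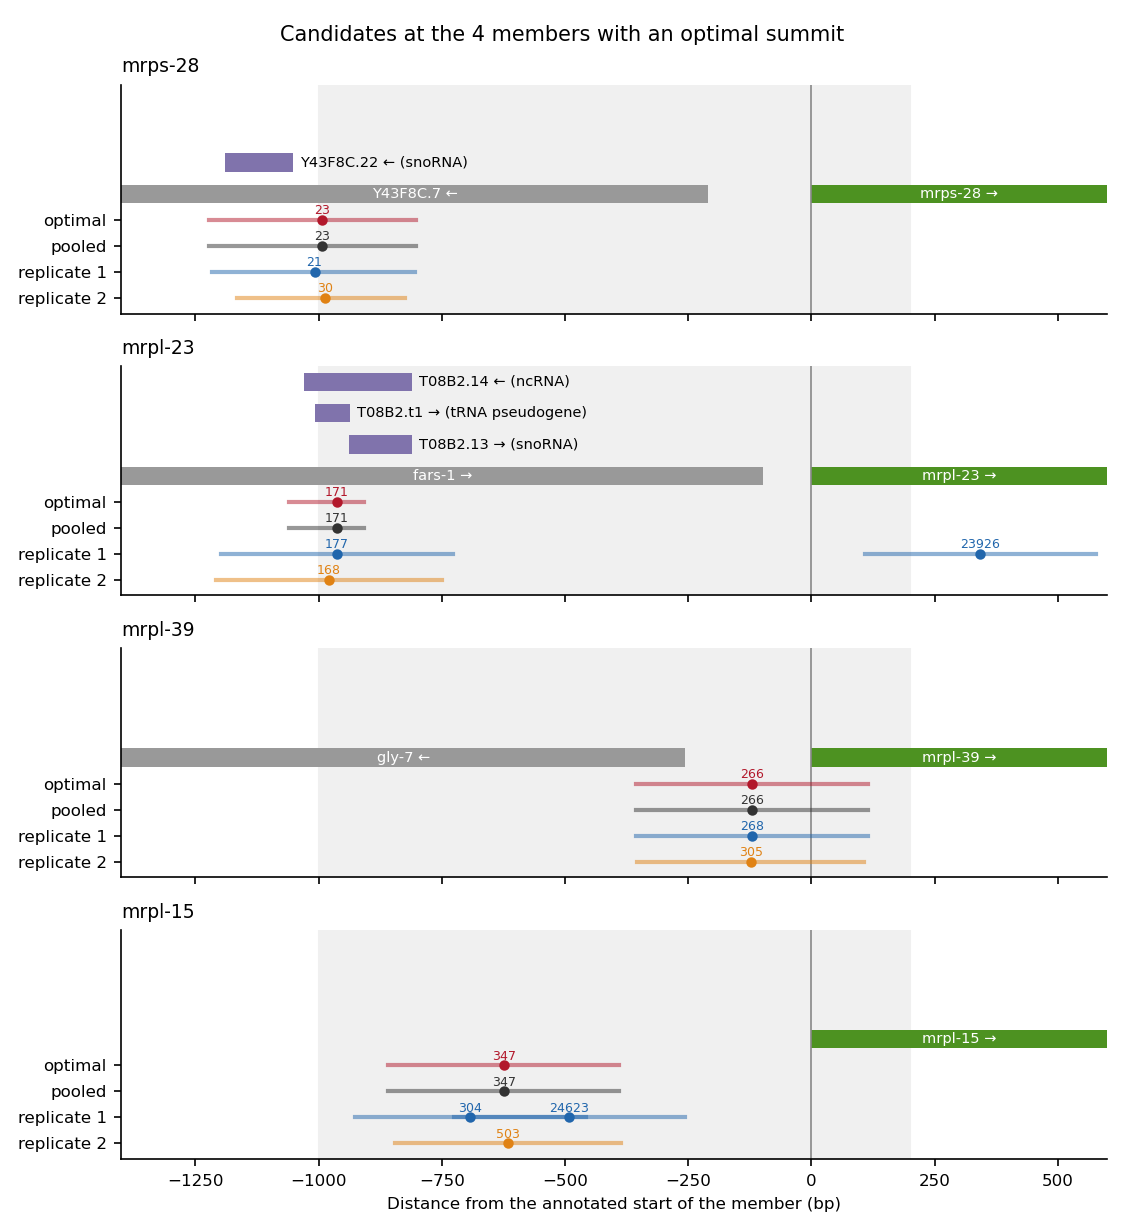
Optimal, pooled and replicate regions (bars) with their summits (dots, labelled with the rank in that list) against distance in bp from the annotated start of mrps-28, mrpl-23, mrpl-39 and mrpl-15, each drawn in the direction of the member. Grey shading is the promoter window, green and grey boxes are protein-coding genes and purple boxes noncoding RNA genes; the mrpl-39 summits lie at 120 to 123 bp upstream, whereas the optimal summits of mrps-28 and mrpl-23 lie 963 bp or more upstream beside snoRNA genes.

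The deposited −log10 q-value could not order these regions. It was 3.06 at all 4 members in the optimal list, a value shared by 581 of the 649 optimal lines. In replicate 1 the highest-ranking overlapping region of each of the 4 had 3.09, and in replicate 2 the value was 2.80 at mrps-28, mrpl-23 and mrpl-39 and 2.05 at mrpl-15. The scaling of the score is not stated, so scores were not compared between lists.

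Beyond the optimal list, 5 further members had a pooled candidate of rank up to 2000, which brought the count to 9 of 71 (12.7%, 5.96% to 22.7%), against 4.49% of all protein-coding genes. Of these 9, 4 were large and 5 were small subunit genes. Away from tRNA, snoRNA and snRNA genes the count was 7 (9.86%, 4.06% to 19.3%), against 4.02% of all protein-coding genes. A pooled candidate with a q-value of at most 0.05 was present at 7 members (9.86%, 4.06% to 19.3%), against 3.52%. Away from the small RNA genes it was present at 5 (7.04%, 2.33% to 15.7%), against 3.08%. These intervals are descriptions and not tests. The members were chosen with earlier results known, and the rank limit was added after a first look at the lists.

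These 5 members had pooled summits close to the start, from 62 to 203 bp upstream. The small subunit gene mrps-23 (mS23; chrIII:9523121-9523672, minus strand) led them with pooled rank 844 (score 164), rank 1033 in replicate 1 and rank 1006 in replicate 2. Its best summit lay 107 bp upstream in the pooled list and in replicate 1, and 205 bp upstream in replicate 2. The pooled summit was inside an intron of prp-40, a splicing factor gene. A further pooled candidate, of rank 4719, lay 314 bp upstream. Of the 5, mrps-23 alone had a pooled −log10 q-value above 2 (2.11). The large subunit gene mrpl-18 (uL18m) had pooled rank 1360, with rank 1610 in replicate 1 and 5888 in replicate 2, and a summit 172 bp upstream that it shared with phka-1, a phosphorylase kinase subunit gene. The small subunit gene mrps-35 (mS35) had pooled rank 1367, with rank 1639 in replicate 1 and 8719 in replicate 2. Its summit, 134 bp upstream, fell in an untranslated exon of sws-1. At both mrpl-18 and mrps-35 the pooled rank was close to that of replicate 1, while replicate 2 placed the region far lower in its list.

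The small subunit gene mrps-34 had pooled rank 1734, with rank 2164 in replicate 1 and 1538 in replicate 2. The pooled summit lay 62 bp upstream, against 41 bp in replicate 1 and 131 bp in replicate 2, and it was shared with cisd-3.1, a CDGSH-type iron-binding protein gene 429 bp away. The small subunit gene mrps-10 (uS10m) had pooled rank 1796, with rank 8273 in replicate 1 and 1113 in replicate 2, the reverse of the pattern at mrpl-18. Its summit lay 203 bp upstream in a promoter shared with npp-25, whose product is a homologue of transmembrane protein 33. The replicates' ranks thus lay close at mrps-23 and mrps-34 and far apart at mrpl-18, mrps-35 and mrps-10. After these genes the next member was mrpl-12, at pooled rank 3409.

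**Figure D2:**
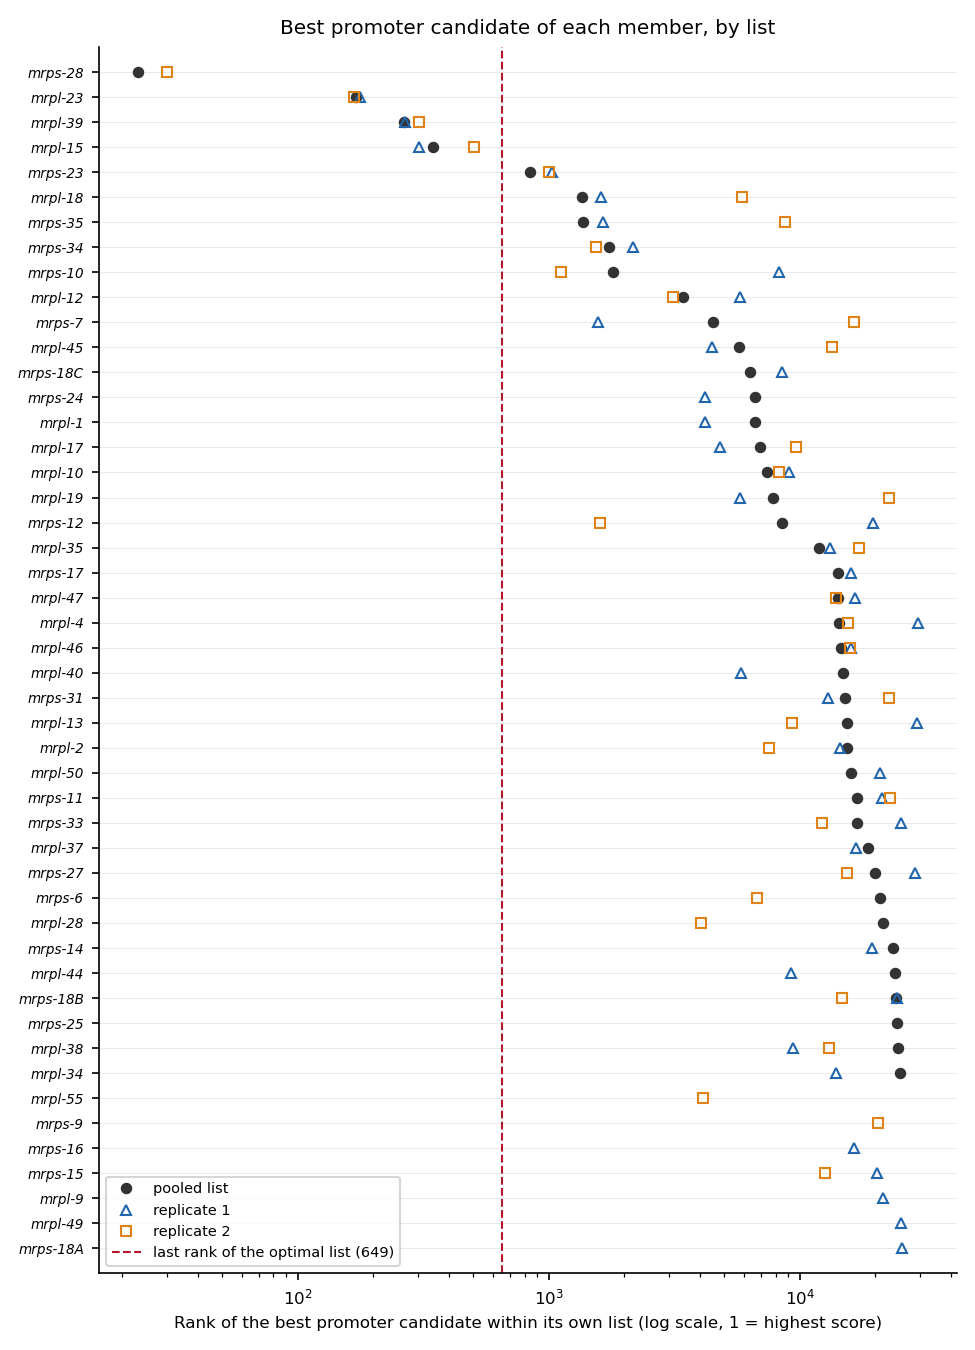
Rank (log scale, 1 is the highest score) of the best promoter candidate of the 48 members with one in the pooled (black), replicate 1 (blue) or replicate 2 (orange) list, each within its own list. Symbols lie close together for mrpl-23, mrpl-39, mrpl-15 and mrps-23 and spread over most of the range further down; mrps-28 has no replicate 1 symbol because that summit is 1008 bp upstream.

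Over the whole candidate lists, 41 members had a pooled candidate in the promoter (57.7%, 45.4% to 69.4%), against 33.6% of all protein-coding genes. These were 23 of the 42 large subunit genes and 18 of the 29 small subunit genes. In replicate 1, 42 members had a candidate (59.2%), against 33.9% of all protein-coding genes, and in replicate 2, 33 members did (46.5%), against 30.7%. Both replicates listed a candidate at 28 members (39.4%, 28.0% to 51.7%), against 20.0% of all protein-coding genes. The members' share was above that of all genes in each list. Most of these candidates ranked low, however. The candidate at the members' median pooled rank, that of mrps-17, had a −log10 q-value of only 0.154. A pooled candidate with a q-value of at most 0.05 was present at 7 of the 71 members. The median rank of the best pooled candidate was 14200 over the 41 members (quartiles 4512 and 16926), against 11454 over the 6716 protein-coding genes with one (quartiles 4512 and 19923). In replicate 1 alone the medians were 13096 for members, against 11570 for all genes with a candidate, and in replicate 2 alone 9264, against 11201, so the order of the medians differed between the replicates. The pooled and replicate 1 lists both have 30000 lines and the replicate 2 list 26661, so presence near their end depends on where the authors stopped.

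The members' share was above that of all genes at each depth of the pooled list examined. At ranks up to 50 and 100 it rested on 1 gene, mrps-28, and up to 200 on 2, mrps-28 and mrpl-23. The summits of both lay beside snoRNA genes. Among the 400 highest pooled candidates, 4 members had a summit (5.63%), against 1.19% of all protein-coding genes. The same 4 were the count among the first 649, against 1.93%. The depths are nested, so the same genes count again at each later one. Among the first 10000 the count was 19 (26.8%), against 15.0%. The count of members did not change between ranks 2000 and 3000, where it stayed at 9.

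**Figure D3:**
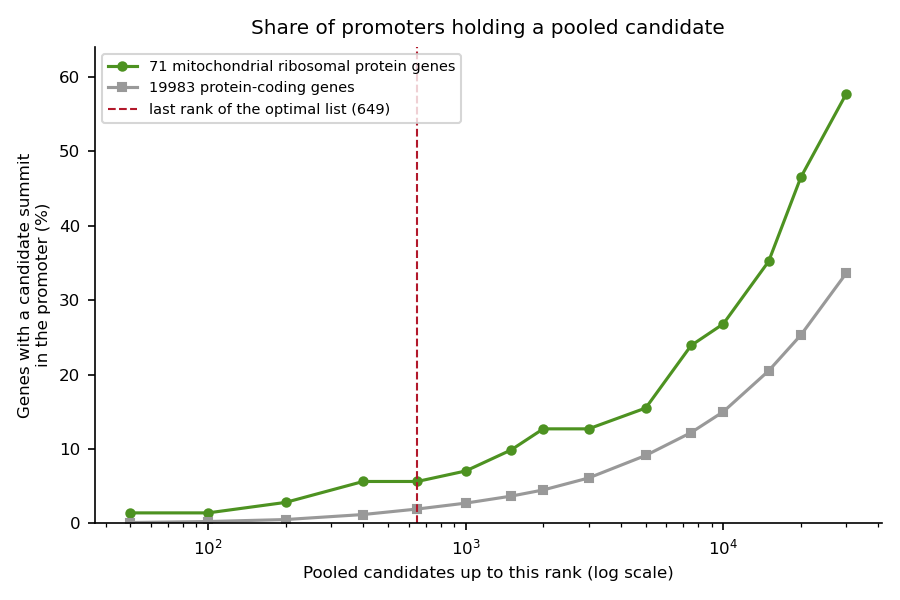
Percent of the 71 mitochondrial ribosomal protein genes (green) and of all 19983 protein-coding genes (grey) with a pooled candidate summit in the promoter, against the number of pooled candidates counted from the top (log scale). The green line is above the grey one at each rank plotted, and ends at 57.7% against 33.6%.

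The replicates overlapped only in part. Of the 71 members, 14 had a candidate in replicate 1 and not in replicate 2, 5 in replicate 2 and not in replicate 1, and 24 in neither (33.8%, against 55.5% of all protein-coding genes). Replicate 1 alone thus accounted for 19.7% of members, against 13.8% of all protein-coding genes, and replicate 2 alone for 7.04%, against 10.6%. One of the 5 is mrps-28, whose replicate 1 region of rank 21 has its summit 1008 bp upstream, just outside the window. Over the 28 members listed in both, the Spearman correlation of the best ranks was 0.540, given as a description, since both lists used 1 control alignment. The best summits lay within 100 bp of each other at 18 of these 28 members. A rank up to 2000 was reached by 7 members in replicate 1, by 8 in replicate 2 and by 4 in both. These 4 were mrpl-23, mrpl-39, mrpl-15 and mrps-23, 3 of which also had an optimal summit. The counts of rank up to 2000 by replicate and of summits within 100 bp describe members only. They were not set beside all protein-coding genes.

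The following members were named after their values were seen, to show how far the replicates could part. The uS7m gene mrps-7 had pooled rank 4512, with rank 1573 in replicate 1 and 16499 in replicate 2, and the replicates' best summits lay 193 and 527 bp upstream. The uS12m gene mrps-12 had pooled rank 8453, with rank 19533 in replicate 1 and 1598 in replicate 2, at 192 and 64 bp upstream. So replicate 1 ranked mrps-7 high and mrps-12 low, and replicate 2 did the opposite. At mrpl-10, for uL10m, the ranks were closer, 9039 in replicate 1 and 8267 in replicate 2, against 7424 in the pooled list. The summits of mrpl-12, a large subunit gene, lay 516 bp upstream in replicate 1 and 510 bp in replicate 2, with ranks 5783 and 3122. A further 7 members, a count not set beside all genes, had no pooled candidate but one in a replicate. Of these mrps-15 (uS15m) was in both replicates, at ranks 20289 and 12635, and the highest rank was that of mrpl-55 in replicate 2, 4127.

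No candidate in the pooled or a replicate list was found at 23 members (32.4%), against 54.2% of all protein-coding genes. These comprised 16 large and 7 small subunit genes. Of the 23, 17 (73.9%) closely followed another gene on the same strand, against 18.9% of all protein-coding genes without a candidate. Taken the other way, 17 of the 30 members in such a position had no candidate (56.7%), against 54.4% of all genes in such a position. Among them is mrps-5, for uS5m, named here after its values were seen, whose knock-down is known to lengthen life span in this worm.

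Where members had a pooled candidate, it tended to lie shortly before the start. The median position of the best summit was 197 bp upstream over the 41 members (quartiles 417 and 107 bp upstream), against 314 bp upstream over all protein-coding genes with a candidate. It lay at most 300 bp upstream at 21 of the 41 members (51.2%), against 32.8% of all such genes. In replicate 1 this share was 54.8% of members, against 32.0% of all genes, and in replicate 2 it was 42.4%, against 30.4%. The stretch from 200 to just over 100 bp upstream alone held 12 members (29.3%), against 12.2% of all genes. Of the 41 members, 19 were in the divergent class described below, against 1537 of the 6716 genes. Positions were not compared within a class, so the part of gene arrangement in them was not tested.

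**Figure D4:**
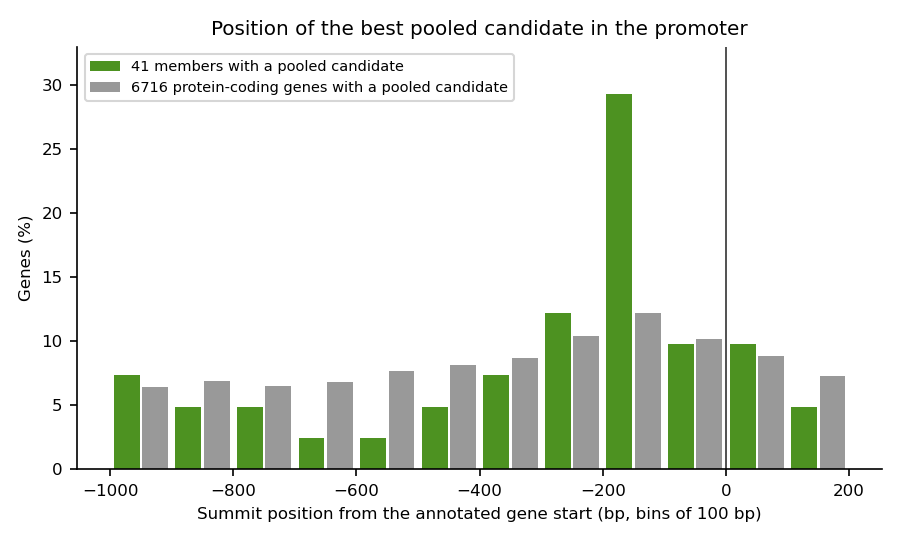
Percent of genes by the position of the best pooled summit, in bins of 100 bp from the annotated start, for the 41 members (green) and the 6716 protein-coding genes (grey) with a pooled candidate. The tallest green bar, 29.3%, is the bin that ends 100 bp upstream of the start, where the grey bar is 12.2%.

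Gene arrangement differed between the members and the genome at large, and the share with a candidate differed between the classes of arrangement. A divergent neighbour started within 1000 bp upstream of 25 members (35.2%), against 17.3% of all protein-coding genes. An operon-like arrangement, in which a gene on the same strand ends within 500 bp upstream (or overlaps the start by up to 100 bp), was found at 30 members (42.3%), against 18.8% of all genes. RefSeq gives no operons, so this class rests on distance and strand. A pooled candidate was present at 19 of the 25 divergent members (76.0%), against 44.5% of all divergent genes. It was present at 12 of the 30 operon-like members (40.0%), against 32.7% of all operon-like genes, and at 10 of the 16 remaining members (62.5%), against 30.9%. For any pooled candidate, the members' share was higher in each class, by the least in the operon-like one. For a rank up to 2000 the counts were 5 of the 25 divergent members, against 9.52%, and 3 of the 16 remaining, against 3.42%. In the operon-like class 1 of the 30 members, mrpl-23, reached that rank, against 3.48%, so the members' share was not higher there. The promoters of other genes also held the best pooled summit of 20 of the 41 members (48.8%), against 28.2% of all protein-coding genes with a pooled candidate. Among divergent genes alone this share was 84.2% of members, against 87.5% of all. Both mrpl-1 and mrps-24 had the same best summit, of rank 6619. The part of gene arrangement in the members' share was not tested.

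**Figure D5:**
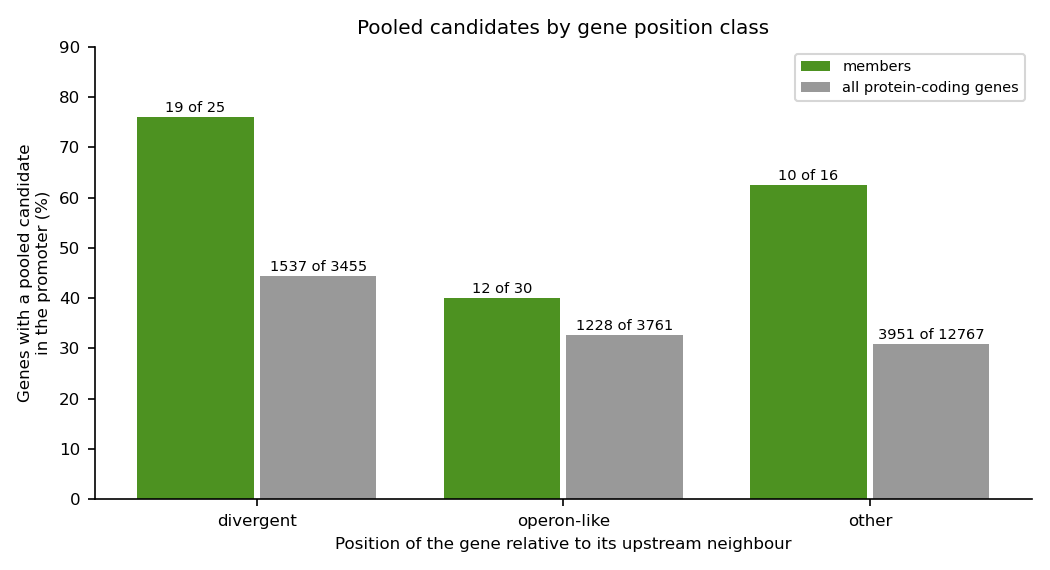
Percent of genes with a pooled candidate in the promoter, for members (green) and all protein-coding genes (grey), by position relative to the upstream neighbour. Bars carry the counts, and the difference between the bars is smallest in the operon-like class (40.0% against 32.7%).

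For the 30 operon-like members, the promoter of the first gene of the chain was also examined. That first gene held a pooled candidate for 17 of them (56.7%), against 43.4% of all operon-like genes. It had a candidate of rank up to 2000 for 6 of the 30, against 8.08% of all operon-like genes, and an optimal summit for 3 of the 30, against 4.17%. The members with an optimal summit at the first gene of the chain were all of the small subunit. Upstream of mrps-14, nrde-2 had a summit of rank 288, 927 bp before its start. Upstream of mrps-30, eif-3.E, a subunit gene of the cytosolic translation initiation factor eIF3, had one of rank 448, 170 bp before its start. Upstream of mrps-21, the cytochrome c oxidase subunit gene F29B9.11 had one of rank 556, 485 bp before its start and within 2000 bp of mrps-21 itself. The optimal summit of mrpl-23 lay within its chain and not at the first gene, fars-1.

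Chromosome III carried 23 of the 71 members (32.4%), against 13.2% of all protein-coding genes, and X carried none. A pooled candidate was present at 12 of the 23 members on III (52.2%), against 45.7% of all genes there. On V it was present at 6 of 10 members (60.0%), against 22.9%. By protein name, 14 of 23 universal proteins (60.9%), 5 of 9 bacterial ones (55.6%) and 13 of 20 mitochondria-specific ones (65.0%) had a pooled candidate. The remaining 19 products carry no such name, and 9 of those genes had one (47.4%). Beside these shares, a pooled candidate was present at 57.7% of all members and 33.6% of all protein-coding genes. Symbol and product did not always match, since the product of mrps-18C reads as large subunit protein uL3m, and that of mrps-27 as an Ig-like domain-containing protein. The product of the large subunit gene mrpl-48 reads as a small subunit protein uS10 domain-containing protein. These genes were counted by symbol for the subunit and by product for the protein name.

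Other genes of mitochondrial translation and gene expression, a list of 42 that includes aminoacyl-tRNA synthetases, elongation and release factors and maintenance of mitochondrial DNA, were counted in the same way. A pooled candidate was present at 24 of the 42 (57.1%), against 33.6% of all protein-coding genes, and one of rank up to 2000 at 4 (9.52%), against 4.49%. An optimal summit was present at 3 (7.14%), against 1.93%, and away from tRNA, snoRNA and snRNA genes at 2. The 3 were ears-2, the mitochondrial glutamyl-tRNA synthetase gene, at rank 32 and 42 bp upstream, mtss-1, for a mitochondrial single-stranded DNA-binding protein, at rank 189 and 204 bp upstream, and mma-1, for a leucine-rich PPR motif protein, at rank 414 and 723 bp upstream. The mma-1 summit was near the snoRNA gene C14C10.8. The next of the list were the tRNA synthetase genes tars-1, kars-1 and yars-2 at ranks 1296, 2335 and 2954. RefSeq names the tars-1 product as the cytoplasmic enzyme, so 1 of the list's 4 genes of rank up to 2000 is not annotated as mitochondrial. Among ribosomal proteins outside the symbol rule, named after their values were seen, dap-3 (mS29) had no candidate in any list and R186.8 (L33) had a pooled candidate of rank 17596.

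The cytosolic ribosomal protein genes, rpl- and rps-, held candidates more often and at higher ranks. Of the mitochondrial members, 57.7% had a pooled candidate, against 79.5% of the 78 cytosolic genes, and the median best rank was 14200, against 3965. A rank up to 2000 was reached at 12.7% of mitochondrial members, against 29.5% of cytosolic genes, and an optimal summit was present at 5.63%, against 10.3%. No test was made between these lists.

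The 3 motifs marked in the sequences above were taken from earlier results on the same regions, so their presence at summits is a description. CCGCAC shares its last 5 bases with the start of CGCACA, so both can match at 1 place. On either strand, CCGCAC occurred in 10 member promoters (14.1%), against 15.7% of all promoters of the same length. CGCACA occurred in 14 (19.7%), against 23.1%, and CCGCCC in 14 (19.7%), against 19.3%. The members' shares were thus near those of all promoters. Within 50 bp of the 9 member summits of rank up to 2000, CCGCCC was found at 3, those of mrps-28, mrpl-39 and mrps-23, against 9.75% of the 718 such summits in all promoters. CCGCAC was found at 1 of the 9, that of mrpl-15, against 10.6%, and CGCACA at 1, that of mrpl-39, against 12.0%. The summit of mrpl-23 had none of the 3.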

How the data were processed

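Peak lists of 2 samples in 1 group were used, with replicate numbers from the labels. Per the read-me texts deposited with the samples, the authors called candidate regions on each replicate and on the pooled alignments against a control alignment, and derived the optimal list with IDR, on assembly ce11. The cut-off of the IDR step, the caller and the aligner were not given in the sources used here. Every line carries the authors' score, whose scaling is not stated and which served only for ranks within its list, the authors' −log10 q-value, and the deposited offset of the summit. The lists hold no read counts, so the depth is unknown and intervals cover counting error over genes only.

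Starts, gene classes and sequence came from RefSeq WBcel235, with Python 3.11.15, pandas 2.3.3, NumPy 2.4.6 and SciPy 1.17.1. The lookup of summits in promoters was tested on simulated data. Members, lists and motifs were chosen with earlier results of these data known, so a list is described by counts beside those of all protein-coding genes, members included, and no test was made. Of 53 symbols listed for mitochondrial translation, 38 matched, and 4 genes were added by product. Named were members with an optimal summit, the 5 next by pooled rank, genes sharing their promoters, and, of the translation list, genes with an optimal summit and up to 3 of the next highest pooled rank. The genes sharing promoters and those at the head of a chain are given for that position only. The rank limit of 2000, the gene classes and chain heads were added after a first look at the lists. Alternatives were other windows, overlap in place of summits, other starts, stricter cuts of the lists and each replicate alone.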

Additional observations from a re-analysis of the deposited data

How the results depend on the processing

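Of 52 alternatives, 37 kept the value near that reported and 15 moved it. The values were counts, shares and a median, which have no sign, so a reversal could not be scored. The optimal members and their distinct summits were counted as separate results. With the window from 500 bp upstream to 100 bp downstream, 1 member (mrpl-39) and 1 distinct summit remained optimal, against 1.36% of all genes, and 16 members had a candidate in both replicates (22.5%, against 10.8% of all genes). With the window from 2000 bp upstream to 500 bp downstream, 44 members did (62.0%, against 34.9%), and 2.70% of all genes had an optimal summit. Leaving out summits near tRNA, snoRNA or snRNA genes gave 2 members (mrpl-15 and mrpl-39) and 2 distinct summits, against 1.57% of all genes. Any overlap in place of a summit gave 5 members, against 2.16% of all genes, and keeping only the upper part of the optimal list, by score, gave 3 members, against 0.951% of all genes. The 10000 highest candidates gave 19 members in the pooled list (26.8%, against 15.0%) and 11 in both replicates (15.5%, against 7.77%). Ranks up to 1000, chosen after seeing the data, gave 5 members in place of 9 (7.04%, against 2.72%).

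The optimal list rests on both replicates, so for 1 replicate it was replaced by the top 649 candidates of the replicate that was kept. Leaving out 1 replicate in this way gave 3 to 4 members with such a summit, against 1.76% to 1.89% of all genes. It gave 7 to 8 members of rank up to 2000, a count not set beside all genes. The members' median best rank was 9264 to 13096, the lowest without replicate 1. There it was lower than that of all genes with a candidate (9264 against 11201). In the pooled list it was higher (14200 against 11454). Without replicate 2, mrps-28 was lost, since its summit then lay 1008 bp upstream. Given to the nearest start only, mrps-28 was lost as well. No paired analysis was possible because there is 1 group. The cause of these shifts was not tested, other than that stricter cuts hold fewer regions. Depth is unknown, so the absence of a candidate does not show absence of binding.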
